A study of Mus musculus with 14 samples.

Results

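The transcription factors Six3, Six6, Rax, Otp, Sim1, Nkx2-4, Barhl2, Tcf7l2 and Lhx9, which pattern the diencephalon, were examined in RNA sequencing of whole fetal brains. The 9 genes were taken by symbol from the 41934 genes of the deposited tables, and each symbol had a single entry at both ages. The brains came from male littermate fetuses on a C57BL/6J background. At embryonic day E13.5 the groups were 4 Dio3+/+ and 2 Dio3-/- fetuses, and at E18.5 they were 3 Dio3+/+ and 5 Dio3-/- fetuses. Dio3-/- fetuses carry a germline mutation that inactivates the type 3 deiodinase, the enzyme that clears thyroid hormone, and reads of Dio3 mRNA are still found in them. The comparison asks whether the loss of this clearance changes gene expression in the brain before birth.

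The diencephalon lies between the telencephalon and the midbrain and gives rise to the thalamus, the prethalamus and the epithalamus, with the hypothalamus in front of and below them. Its regions are set by transcription factors, most of them homeodomain proteins, which are switched on in separate domains of the neural tube by signals such as Shh and Wnt and later mark the neurons born there. Six3, Six6 and Rax act in the eye field and the rostral hypothalamus, Otp, Sim1 and Nkx2-4 in hypothalamic progenitors and neurons, and Barhl2, Tcf7l2 and Lhx9 in the thalamus and around the boundary organizer next to it.

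Six3 and Six6 changed at E13.5, and Tcf7l2 and Lhx9 changed at E18.5. The sequences before the start sites of these 4 genes are shown because their mRNA levels moved with genotype. Promoter windows were taken from RefSeq on GRCm38.p6 for 8 of the 9 genes, with 250 bases before the annotated start and the capitals marking CCAAT or its reverse complement.
Six3, chr17:85620584-85620833, plus strand: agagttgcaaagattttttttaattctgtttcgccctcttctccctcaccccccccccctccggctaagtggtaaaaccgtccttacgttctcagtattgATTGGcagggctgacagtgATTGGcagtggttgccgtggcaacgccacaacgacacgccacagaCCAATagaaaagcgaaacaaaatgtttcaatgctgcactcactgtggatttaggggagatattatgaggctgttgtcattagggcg
Six6, chr12:72939632-72939721, plus strand: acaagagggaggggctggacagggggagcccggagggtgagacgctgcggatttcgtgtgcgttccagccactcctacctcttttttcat
Tcf7l2, chr19:55741560-55741809, plus strand: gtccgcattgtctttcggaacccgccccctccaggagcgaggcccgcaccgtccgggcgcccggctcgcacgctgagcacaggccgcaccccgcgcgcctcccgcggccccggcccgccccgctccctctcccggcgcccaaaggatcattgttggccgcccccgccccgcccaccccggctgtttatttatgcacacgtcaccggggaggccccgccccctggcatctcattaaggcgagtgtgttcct
Lhx9, chr1:138842458-138842694, minus strand: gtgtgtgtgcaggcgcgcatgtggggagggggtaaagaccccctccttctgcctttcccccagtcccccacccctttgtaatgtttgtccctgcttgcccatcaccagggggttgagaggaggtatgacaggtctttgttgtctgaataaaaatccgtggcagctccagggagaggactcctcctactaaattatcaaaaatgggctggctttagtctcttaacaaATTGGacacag
For Six6 and Lhx9 the stretch ends where an annotated untranslated region begins, after 90 and 237 of the 250 bases. The thyroid hormone receptor half-site AGGTCA was found on either strand in 0 of the 8 windows, against 14.0% of all 32851 windows. The direct repeat of this half-site with 4 bases between its copies, the homeodomain core TAATTA and the T-cell factor core CTTTGA were each found in 0 of 8, against 0.0152%, 4.84% and 13.8% of all windows. CCAAT, a common promoter element that was searched for after the sequences had been read, occurred in 4 of the 8 windows and in 33.8% of all windows. Six3 held 3 matches, at 150, 131 and 86 bases before its start, and Six6 held 2, at 68 and 16 bases, in the part that is not shown. These are matches of letters in short windows, and the Six3 and Lhx9 windows lie 7226 and 6133 bases from the outermost start of the gene in the GENCODE annotation.

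Single libraries are not resolved in these tables. They hold, for each age, the mean of the normalized counts of a gene and the log2 ratio between the genotypes (Dio3-/- over Dio3+/+) with an error. The depth of each library is not given. This standard error is the model error of the log2 ratio in the authors' comparison, made on counts adjusted for batch. It is not a direct measure of the spread between fetuses, which cannot be computed without values of single libraries. Nothing in the labels or methods names the litter of each library. Over the genes tested, the median standard error was 0.11 at E13.5 and 0.09 at E18.5 on the log2 scale. Dio3 mRNA, whose level does not check the labels as it would in a deletion, was lower at E13.5 (log2 fold change -0.89, standard error 0.23) and higher at E18.5 (1.10, standard error 0.15) in the libraries labelled Dio3-/-. For E13.5 the paper reports the opposite direction, increased Dio3 expression in Dio3-/- brains, by qPCR on samples that included females. The source of this difference was not tested. Klf9, a direct target of the thyroid hormone receptor, was higher at both ages (0.76 and 1.52). Of 6 general neural markers 1, the progenitor factor Sox2, was called at E13.5 (log2 fold change -0.34, standard error 0.08), and 0 were called at E18.5.

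Levels were compared between genes as the authors' mean normalized count per kilobase of exon, over both genotypes together. At E13.5 this level was highest for Tcf7l2, the nuclear partner of beta-catenin in Wnt signalling, at 1291. Otp, which specifies neuroendocrine neurons of the hypothalamus, followed at 826, and the thalamic factors Barhl2 and Lhx9 lay close together at 535 and 532. The levels per kilobase of Six3 (204), Sim1 (75.0), Nkx2-4 (55.5), Six6 (30.6) and Rax (5.14) were lower. At E18.5 Tcf7l2 was again first with a level of 935 per kilobase, before Lhx9 (231), Otp (156), Barhl2 (133) and Six3 (130.0). Sim1 (23.4), Nkx2-4 (19.8), Six6 (11.9) and Rax (0.567) kept their order. Because the tables give no spread of the levels, it was not tested which neighbours in this order differ.

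**Figure D1:**
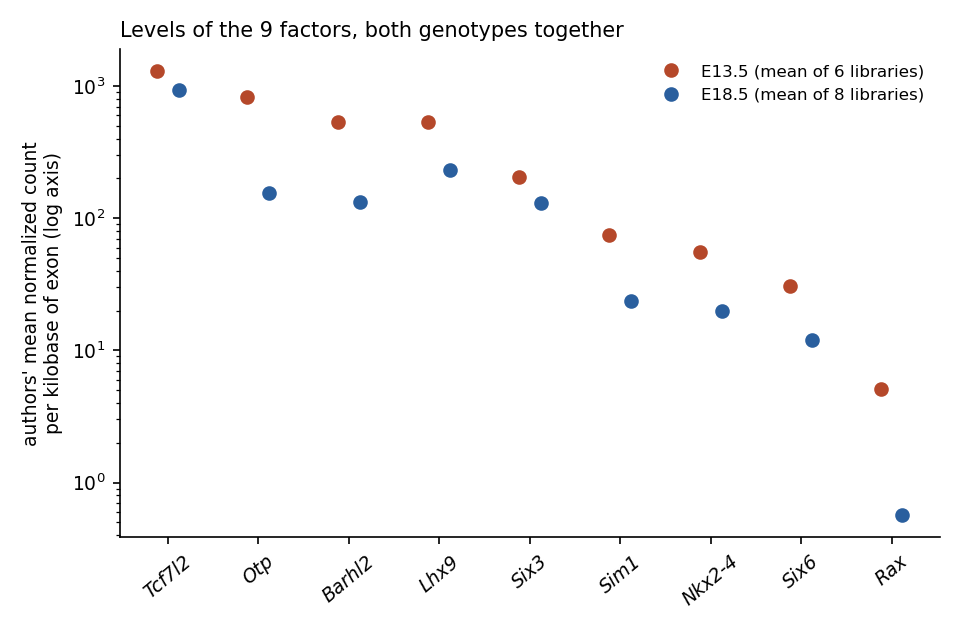
Authors' mean normalized count per kilobase of exon for the 9 factors on a log axis, with 1 point per gene and age over the 6 libraries of E13.5 and the 8 libraries of E18.5. Tcf7l2 has the highest point at both ages (1291 and 935) and Rax the lowest (5.14 and 0.567), and no error can be drawn because single libraries are not in the tables.

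The ages were normalized separately, so their levels stand side by side without a test. Every one of the 9 genes had a higher mean normalized count at E13.5 than at E18.5. The share of all genes that were higher at E13.5 was not counted, so this cannot be read as particular to the 9 factors. The ratio was 9.07 for Rax, from 30.0 to 3.31 mean normalized counts, and 5.29 for Otp, from 2380 to 450 (449.8). For Barhl2 it was 4.01, for Sim1 3.20, for Nkx2-4 2.80, for Six6 2.58 and for Lhx9 2.30. Six3 and Tcf7l2 had the smallest ratios, of 1.57 and 1.38.

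At E13.5, 2 of the 9 factors, Six3 and Six6, had an adjusted p under 0.05 in the comparison of the genotypes, and both were lower in Dio3-/- brains. Of the 16436 genes tested at this age 3.56% passed the same threshold, and 2.32% passed it as lower. The log2 fold change was below 0 for 8 of the 9 factors, with a median of -0.59, against 53.3% of all genes tested and a median of -0.01. The list was chosen with earlier results of these data known.

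Six3 is a homeodomain repressor that keeps the most rostral neural tube free of Wnt signalling and is also expressed in the ventral telencephalon. It lies on chromosome 17 of GRCm38 from 85613608 to 85629302 (ENSMUSG00000038805.10). Its mean normalized count at E13.5 was 1111, and the fold change and group sizes imply means of about 1265 in Dio3+/+ and 802 in Dio3-/- brains. Six3 thus fell by 36.6% (95% interval from -45.0% to -26.8%), an estimate of -0.66 on the log2 scale (standard error 0.11) with an adjusted p of 2.00e-07. It ranked 38 by p among the genes tested. The antisense gene Gm28528 shares 168 exon bases (3.08%) with Six3 and was below the filter. The antisense gene Six3os1, which overlaps 106 exon bases or 1.95% of Six3, was lower as well (log2 fold change -0.46, standard error 0.09, adjusted p = 9.97e-05). Reads were counted without use of the strand, so reads on the shared bases cannot be given to either gene.

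Six6, the close relative of Six3 in the developing optic vesicle, hypothalamus and pituitary, showed the larger change. It lies on chromosome 12 from 72939892 to 72944899 (ENSMUSG00000021099.6). From a mean normalized count of 123, the implied means were about 161 in Dio3+/+ and 46.8 in Dio3-/- brains. Six6 fell by 70.9% (95% interval from -81.0% to -55.4%), with a log2 fold change of -1.78, a standard error of 0.31 and an adjusted p of 4.27e-06. By size, Six6 ranked 15 among the 382 genes called lower at E13.5, and Six3 ranked 73. The gene on the opposite strand, 4930447C04Rik, shares 192 exon bases (4.79%) with Six6, and its estimate was 0.38 (standard error 0.23, adjusted p = 0.580). Six4, which lies 154710 bases from Six6 on the same chromosome, had an estimate of 0.25 (standard error 0.21) and was not called.
Both calls rest on reading the Wald statistic against a normal distribution. Read against a t distribution (4 degrees of freedom, from 6 libraries), the adjusted p was 0.962 for both genes and 0 genes in all were called. In that reading 799 genes had an unadjusted p under 0.05, which is fewer than 5% of the genes tested (822). In whole-brain RNA, fewer cells that express a factor and less of its mRNA per cell cannot be told apart.

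The other 7 factors were not called at E13.5, and the intervals show how much change remained possible. Tcf7l2 came nearest, with a log2 fold change of -0.58 (95% interval from -1.02 to -0.15), an unadjusted p of 0.00783 and an adjusted p of 0.144. For Sim1, the partner of Arnt2 that is needed for neurons of the paraventricular and supraoptic nuclei, the estimate was -0.81 with an interval from -1.61 to -0.01 (adjusted p = 0.407). Nkx2-4, a homeobox gene of the hypothalamus related to Nkx2-1, had an estimate of -0.88 with a wide interval from -2.20 to 0.44. Rax, required for the eye field and later for tanycytes, had -0.59 with an interval from -1.41 to 0.23 at its mean normalized count of 30.0. Otp was the one factor above 0, with a log2 fold change of 0.18 and an interval from -0.04 to 0.40. Lhx9 (-0.14, from -0.35 to 0.06), Otp and Barhl2 (-0.10, from -0.37 to 0.18) had the narrowest intervals of the 7 genes.

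**Figure D2:**
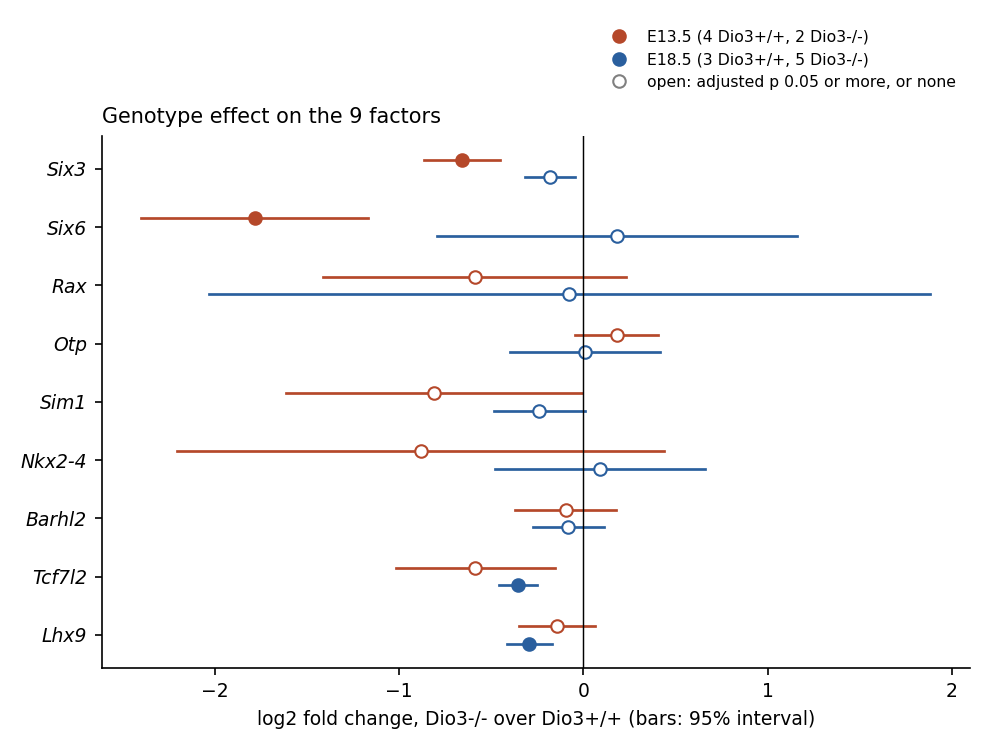
Log2 fold change of Dio3-/- over Dio3+/+ for each factor at E13.5 and E18.5, with bars for the 95% interval and filled points for an adjusted p under 0.05. Six3 (-0.66) and Six6 (-1.78) are filled at E13.5, Tcf7l2 (-0.35) and Lhx9 (-0.29) at E18.5, and the E18.5 bar of Rax is the widest.

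At E18.5, 8 of the 9 factors passed the filter on low counts, and 2 of these 8, Tcf7l2 and Lhx9, were called. Both were lower in Dio3-/- brains. Among the 17607 genes tested at this age 1.37% were called, and 0.415% were called lower. The log2 fold change was below 0 for 5 of the 8 factors with a median of -0.13, against 49.1% of all genes tested and a median of 0.00.

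Tcf7l2 is a transcription factor of the thalamus, habenula and pretectum that is kept on in the neurons of these nuclei. It lies on chromosome 19 from 55741820 to 55933654 (ENSMUSG00000024985.19) and was the most highly expressed of the 9 genes per kilobase. Its mean normalized count at E18.5 was 8202, which implies about 9491 in Dio3+/+ and 7428 in Dio3-/- brains. Tcf7l2 fell by 21.7% (95% interval from -27.0% to -16.0%), an estimate of -0.35 on the log2 scale (standard error 0.05) with an adjusted p of 6.99e-09. It ranked 19 by p among all genes tested. The estimate at E13.5 had the same sign and a larger size, -0.58, and its standard error was 0.22.

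Lhx9, a LIM homeodomain factor of early thalamic, pretectal and hypothalamic neurons, lies on chromosome 1 from 138825186 to 138848577 (ENSMUSG00000019230.14). It had a mean normalized count of 2196 at E18.5, with implied means of about 2481 in Dio3+/+ and 2025 in Dio3-/- brains. The decrease was 18.4% (95% interval from -25.0% to -11.2%), with a log2 fold change of -0.29, a standard error of 0.06 and an adjusted p of 0.000551. No other annotated gene overlaps exons of Lhx9 or Tcf7l2. Among the 73 genes called lower at E18.5, Tcf7l2 ranked 12 and Lhx9 ranked 19 by size. Read against a t distribution (6 degrees of freedom), the adjusted p was 0.442 for Tcf7l2 and 0.677 for Lhx9, and 1 gene in all was called. In that reading 714 genes had an unadjusted p under 0.05, which is fewer than 5% of the genes tested (880).

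Six3 was the nearest to the threshold among the rest at E18.5, with a log2 fold change of -0.18 (95% interval from -0.32 to -0.04), an unadjusted p of 0.00919 and an adjusted p of 0.278. Sim1 had an estimate of -0.24 (from -0.49 to 0.01) and an adjusted p of 0.653. For Barhl2 the log2 fold change was -0.08 (from -0.27 to 0.11). The remaining hypothalamic factors were close to 0 with wider intervals. Otp had 0.01 (from -0.40 to 0.41), Nkx2-4 had 0.09 (from -0.48 to 0.66) and Six6 had 0.18 (from -0.80 to 1.16). Rax, at a mean normalized count of 3.31, was below the filter minimum of 13.8 and has no adjusted p at this age.

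**Figure D3:**
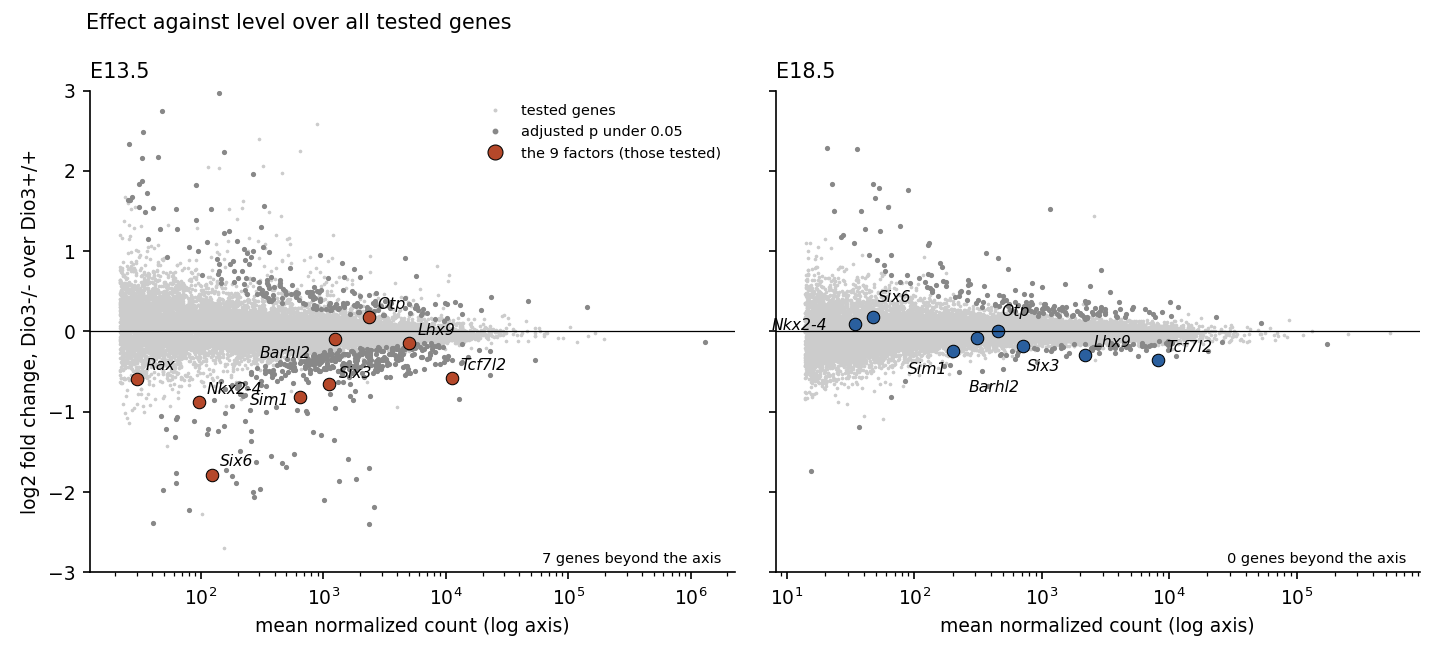
Log2 fold change of Dio3-/- over Dio3+/+ against the mean normalized count (log axis) at E13.5 and E18.5, with all tested genes in light grey, called genes in dark grey and the factors in colour. Six6 lies apart from the light cloud at E13.5 (-1.78), while Tcf7l2 (-0.35) and Lhx9 (-0.29) lie at its lower edge at E18.5, where highly expressed genes vary little.

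The effect of genotype was compared between the ages with the standard errors of both. This test covered 17793 genes whose mean reached 10 in both tables. It gave an adjusted p below 0.05 for 1.95% of them, and 2 of the 8 factors tested were among them. The effect on Six6 was higher by 1.97 at E18.5 than at E13.5 (95% interval from 0.81 to 3.12, adjusted p = 0.0458), from log2 fold changes of -1.78 and 0.18. For Six3 the difference was 0.48 (from 0.23 to 0.72, adjusted p = 0.0141), from -0.66 to -0.18. Neither call held under every alternative. After scaling z down by 1.11, its observed central spread, the adjusted p was 0.141 for Six6 and 0.0579 for Six3. Read against a t distribution (4 degrees of freedom), it was 0.988 for both, and 0 genes in all were called against 347. After centring each age on its median, Six6 had an adjusted p of 0.0505.
Tcf7l2 and Lhx9, called at E18.5 and not at E13.5, showed no difference between ages that passed the threshold. Their differences were 0.23 (from -0.21 to 0.67, adjusted p = 0.849) and -0.15 (from -0.39 to 0.09, adjusted p = 0.797). The other 4 factors tested had adjusted p between 0.762 for Sim1 and 0.993 for Barhl2.

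**Figure D4:**
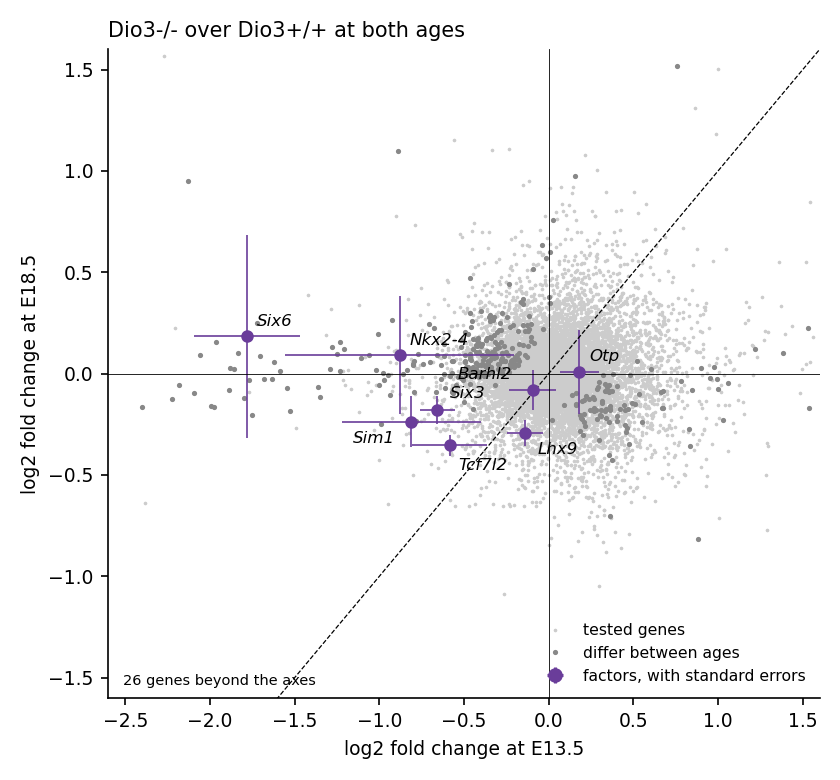
Log2 fold change at E18.5 against that at E13.5, with standard errors for the 8 factors tested and a dashed line of equal effect. Shown are those of the 17793 genes tested for the difference that passed the count filter at either age. Some of them lie beyond the axes. Six6 (-1.78 at E13.5, 0.18 at E18.5) and Six3 (-0.66, -0.18) lie left of the line, and Tcf7l2 and Lhx9 lie within 2 standard errors of it.

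The other transcription factors of these regions were listed by domain. Over all genes tested, 1.24% were called higher at E13.5 and 0.96% at E18.5, beside the shares called lower given above. At E13.5, 5 of the 7 listed eye field and rostral midline factors were tested and 4 were called, all of them lower, and the list's median was -0.74 on the log2 scale. They were Pax6 (-0.74, standard error 0.09), which the eye and the dorsal telencephalon both need, the optic stalk factor Vax1 (-1.75, standard error 0.27), Nr2e1 (-1.35, standard error 0.26) and Lhx2 (-0.52, standard error 0.11). Six3 (-0.66) lay within the range of these 4 values, and Six6 (-1.78) lay next to Vax1 at its lower end.
Of 16 hypothalamic factors 2 were lower and 1 was higher, with a median of -0.07. Fezf1, a factor of the ventromedial hypothalamus, had -1.55 (standard error 0.16), Nkx2-1, which specifies the ventral hypothalamus and the medial ganglionic eminence, had -1.29 (standard error 0.27), and Nhlh2 had 0.29 (standard error 0.08). Otp, Sim1 and Nkx2-4 were uncalled like 13 of these 16 genes.
Among 9 prethalamic factors 6 were lower and 2 were higher. The lower genes included Dlx1 (-1.70, standard error 0.09) and Dlx2 (-1.86, standard error 0.10), which are shared with the ganglionic eminences, and the higher genes were Lhx1 (0.42, standard error 0.08) and Lhx5 (0.30, standard error 0.07). Of 17 thalamic factors 3 were lower (Neurog2, Olig2 and Rora, from -0.80 to -0.38) and 1, Irx3, was higher (0.51, standard error 0.10), with a median of 0.01. The epithalamic and pretectal list held 4 higher genes of 7, Pou4f1, Pax3, Ebf1 and Ebf3, and a median of 0.31.

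At E18.5 these lists held few calls. Of the 16 thalamic factors tested 15 had a log2 fold change below 0, with a median of -0.15, and 1 was called, Prox1 (-0.19, standard error 0.05, adjusted p = 0.0126). Tcf7l2 (-0.35) and Lhx9 (-0.29) were lower than each of these 16 estimates, of which Irx1 (-0.23, standard error 0.09) and Sox14 (-0.23, standard error 0.10) came next and were not called.
The list of 9 genes of thalamic neurons held 0 calls. Its smallest p belonged to Calb2 (-0.17, standard error 0.06, adjusted p = 0.172) and Ntng1 (-0.18, standard error 0.06, adjusted p = 0.184), and the glutamate transporter gene Slc17a6 had -0.06 (standard error 0.06). The hypothalamic list held 1 call, Arnt2 (-0.12, standard error 0.03, adjusted p = 0.0296), and the epithalamic and pretectal list held Ebf3 (-0.18, standard error 0.05, adjusted p = 0.0423). The eye field and prethalamic lists held 0 calls.

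**Figure D5:**
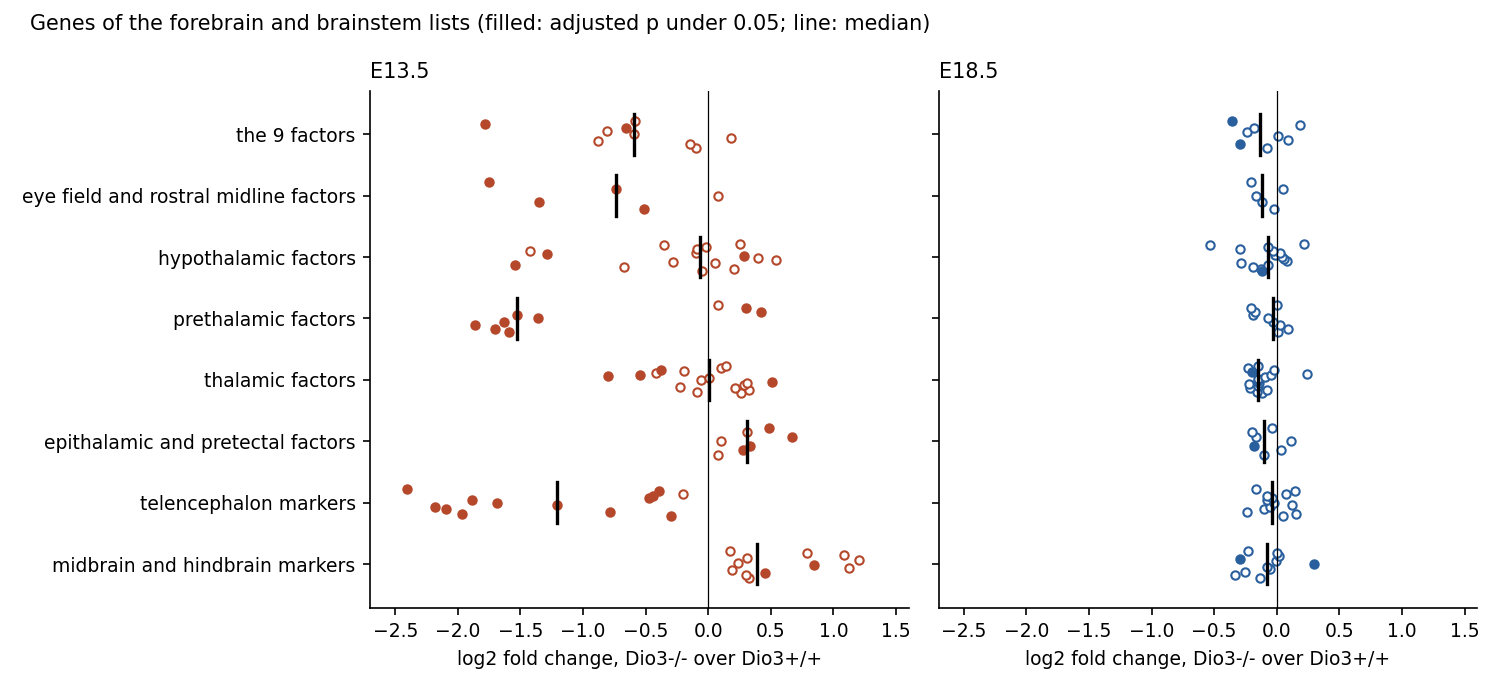
Log2 fold change of Dio3-/- over Dio3+/+ for the tested genes of each regional list at E13.5 and E18.5, with filled points for an adjusted p under 0.05 and a line at the list's median. At E13.5 the medians run from -1.52 for the prethalamic and -1.21 for the telencephalon list to 0.39 for the midbrain and hindbrain list, and at E18.5 they lie between -0.15 and -0.03.

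Relatives and partners of the 9 factors were mostly uncalled. Of 21 such genes 3 were called at E13.5, namely Nkx2-1 and Lhx2 (lower, above) and Eya1, which encodes a cofactor of Six3 and Six6 relatives and was higher (0.42, standard error 0.13). At E18.5 the call was Arnt2, the dimer partner of Sim1. For Tcf7l2, the other T-cell factors Tcf7, Tcf7l1 and Lef1 had log2 fold changes of -0.25, -0.18 and -0.15 at E18.5, and beta-catenin (Ctnnb1) had -0.01 (standard error 0.04), and none of them was called.

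Markers of other parts of the brain moved with genotype at E13.5. All 13 telencephalon markers had a log2 fold change below 0 and 12 were called, with a median of -1.21. The implied sum of their normalized counts was about 23864 in Dio3+/+ and 13149 in Dio3-/- brains. Lhx6 had -1.68 (standard error 0.13) and Emx1 had -1.97 (standard error 0.24). Midbrain and hindbrain markers were above 0 in 12 of 12 tested genes, with 2 called (Lmx1b at 0.85 and En2 at 0.45) and a median of 0.39. Of 9 Hox genes of groups 5 to 9 tested, which are expressed in the hindbrain and spinal cord, 9 were above 0 and 5 were called. The implied sum over all 15 listed was about 914 in Dio3+/+ and 6640 in Dio3-/- brains, and it carries no error. The genes with the highest counts had large standard errors. Hoxa5 (2.58, standard error 1.09) and Hoxb5 (2.24, standard error 1.03) were not called, and Hoxb8 (3.93, standard error 1.21) was. Smaller errors were found for the called genes Hoxa6 (3.66, standard error 0.42) and Hoxc6 (4.50, standard error 0.56). At E18.5 the telencephalon list had a median of -0.04 with 0 calls, the midbrain and hindbrain list had 1 higher and 1 lower gene, and 0 of 7 Hox genes were called. The part of these shifts in the values of Six3 and Six6 was not tested.

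The eyes and the pituitary also express Six3, Six6 and Rax. Of 15 eye markers 4 passed the filter at E13.5, 1 was called and it was higher (Pou4f2, 0.46, standard error 0.13), and the implied sum of the list was about 958 in Dio3+/+ and 1214 in Dio3-/- brains. The lens crystallin Cryaa was at 0 at this age, and the pigment cell genes Tyr and Tyrp1 had mean normalized counts of 0.766 and 4.28. Of 9 pituitary markers 4 were tested at E13.5, and Lhx4 was called higher (0.54, standard error 0.17). At E18.5 the growth hormone gene Gh was expressed at 963 normalized counts on average, with an estimate of 0.36 (standard error 1.54), and 0 pituitary markers of 3 tested were called. The part of eye or pituitary tissue in the values of Six6 was not tested.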

How the data were processed

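RNA sequencing of 14 whole brains of male fetuses in 4 groups of age and genotype, taken from the labels, was analysed from a deposited table for each age. The authors trimmed the reads with cutadapt 3.1, aligned them to GRCm38 with STAR 2.5.3a, counted them on GENCODE genes with HTSeq without strand, removed differences between 2 sequencing batches by ComBat-seq, and tested genotype by DESeq2 1.30.1. The batch of a library and its effect on these values were not analysed here. The authors deposited the mean normalized count as a signal: counts were divided by size factors and averaged within an age. Effects and errors were deposited as log2 values, and their quotient, which the authors call the Wald statistic, is a score. Each p-value that the authors deposited is the two-sided normal p of that statistic. Columns with values of single samples that were left unused numbered 0.

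The tables hold values of the authors' comparison, so the Wald test named in the design was used. Independent filtering by mean count was repeated (R 4.3.3, 50 quantiles) and kept 16436 genes at E13.5 and 17607 at E18.5. P-values of all kept genes were adjusted by the Benjamini-Hochberg method, and a gene with an adjusted p under 0.05 was called. Differences between ages were scaled by both standard errors, added in quadrature, and compared with a normal distribution. Intervals are 95% normal intervals. The mean of each genotype was implied from the mean normalized count, the fold change and the number of libraries. The code was tested on simulated fold changes.

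Positions and exon lengths are from GENCODE M21 on GRCm38, 1 release before the annotation the authors used. The members and all gene lists were chosen with earlier results of these data known. Named genes are the 9 factors, Dio3, Klf9 and, of each list, up to 3 called genes per direction and age or the 2 with the smallest p. Genes named beyond that rule (Gh, Tyr, Tyrp1, Cryaa, genes of the same family or locus as a factor and further genes of a list) were chosen after their values were seen. Some genes that the rule selects are counted in their lists and not reported by name.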

Additional observations from a re-analysis of the deposited data

Results flagged for a closer look

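The effect of genotype on Six6 and on Six3 differed between the ages in the normal test of the difference, and this depended on the test's settings. For Six6 the log2 fold change at E18.5 was higher than that at E13.5 by 1.97 (standard error 0.59, adjusted p = 0.0458), and the mean normalized count fell from 123 at E13.5 to 47.6 at E18.5. For Six3 the difference was 0.48 (standard error 0.13, adjusted p = 0.0141). These adjusted p were taken over 17793 genes, and both genes were called at E13.5 and not at E18.5. With the t distribution the adjusted p of the difference was 0.988 for both genes, and with z scaled to unit central spread it was 0.141 for Six6 and 0.0579 for Six3. After centring each age on its median it was 0.0505 for Six6, while Six3 was still called.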

How the results depend on the processing

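No paired analysis was possible because the tables hold no value for a single library, and for the same reason no library could be left out. The t distribution, with 4 degrees of freedom at E13.5 and for the difference between ages and 6 at E18.5, left 0 of 585 genes called at E13.5 (0 higher, 0 lower), 1 at E18.5 against 242 (1 higher, 0 lower) and 0 of 347 for the difference between ages, and 0 of the 9 factors in each of the 3. When the Wald statistics were scaled to unit central spread, 320 genes were called at E13.5 (97 higher, 223 lower), and 192 for the difference between ages, with 0 factors. That setting kept Six3 and Six6 called at E13.5 and Tcf7l2 and Lhx9 at E18.5, as did no filter, a minimum mean of 10 and centring. For the difference between ages, 1 factor (Six3) was called with a minimum mean of 50 at both ages, where Six6 is not tested, and 1 (Six3) after centring each age on its median, where Six6 had an adjusted p of 0.0505. Centring moved the values by 0.01 at E13.5 and 0.00 at E18.5 on the log2 scale. No factor uncalled in the main comparison was called, and no called factor changed direction, in any alternative tried. Precision is limited by 2 Dio3-/- libraries at E13.5, a depth that is not given for each library and the batch adjustment made before deposit.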

Other observations

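Genes that act before and after the 9 factors were listed too. Of 9 diencephalic organizer signals 1 was called at E13.5, Wnt8b, a Wnt ligand of the hypothalamus and the cortical hem, at -0.53 on the log2 scale (standard error 0.14, adjusted p = 0.0109). Shh had 0.12 (standard error 0.17) at E13.5 and 0.56 (standard error 0.18, adjusted p = 0.107) at E18.5, where 0 of 7 signals tested were called by this Wald test. Of 15 hypothalamic peptide genes 6 were tested at E13.5 and 1 was called, Npy, which was higher (0.65, standard error 0.18, adjusted p = 0.0135). At E18.5, 0 of 10 were called. Avp, whose neurons depend on Otp and Sim1, was expressed at 103 normalized counts on average, with an estimate of 0.31 (standard error 0.18, adjusted p = 0.732), and Sst had -0.06 (standard error 0.06).

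The standard errors of several factors were large for their level. At E13.5 the standard error of Tcf7l2 was 3.99 times the median of 507 genes within 1.5-fold of its mean normalized count, and that of Sim1 was 4.17 times and that of Nkx2-4 2.88 times the median of such genes. For Six3 the ratio was 1.29 and for Six6 1.52. At E18.5 the ratio was 1.23 for Tcf7l2 and 1.28 for Lhx9, while it was 2.56 for Otp and 2.11 for Six6. Which libraries contribute to these standard errors was not analysed here.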
